A study of Mus musculus with 8 samples.

Results

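The genes described here are 37 mouse genes of DNA replication and S phase, out of 29713 genes in the deposited tables. They were listed by their function and found by symbol, and all 37 were matched. The list holds 6 subunits of the MCM2-7 helicase, 5 genes of origin recognition and loading, 6 of helicase activation, 12 of the polymerases, sliding clamp and ligation machinery, 4 of nucleotide supply and 4 of G1/S control.

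Transcripts were sequenced in 8 mouse libraries that make up 8 groups of 1 library, so no test across libraries could be run and no p-value is given. The glia library and the neuron library were both made from C57 brain, and C57 was also the strain of the cerebellum, cortex and hippocampus libraries. ICR MEF and OG2 MEF, named for their strains, were fibroblasts, the connective tissue cells of the embryo, taken from embryos at day 13.5. The eighth library was labelled R1 ESC, with inner cell mass as its source and 129X1 x 129S1 as its strain. Age and sex of the animals, any allele beyond the strain name, any treatment, the way glia and neurons were isolated and any time in culture are all details not given in the sources used here.

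Glia was the deepest library, with 5864673 expected counts, and the library labelled R1 ESC the shallowest, with 2147004. Levels are given as TPM, which divide counts by transcript length and scale each library to the same sum. Marker genes were set beside the labels of the libraries. The library labelled R1 ESC had 3 of 8 pluripotency markers at 10 TPM or more, with Pou5f1 at 20.2 TPM, Nanog at 10.3 TPM and Tdh at 14.6 TPM, while Zfp42, Esrrb, Dppa5a and Lin28a were at 0. Ribosomal protein genes took 49.3% of the TPM in that library, against 4.56% to 20.8% in the other 7. The glia library held 7 of 8 astrocyte markers at 10 TPM or more, together with 7 of 8 microglia and 6 of 8 fibroblast markers. Of 8 oligodendrocyte markers it held 2, Olig1 at 631 TPM and Olig2 at 102 TPM, while Mog, Mobp and Sox10 were at 0. All 10 neuron markers reached 10 TPM in neuron and in each brain region, and all 8 fibroblast markers did so in both MEF libraries. The neuron markers summed to 5351 TPM in neuron, against 7331 to 8368 TPM in the brain regions. Neuron also held 4 of 8 astrocyte, 3 of 8 microglia, 2 of 8 fibroblast and 1 of 8 oligodendrocyte markers at 10 TPM or more.

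Cells copy their DNA once in each division cycle. In G1 the origin recognition complex, CDC6 and CDT1 load the MCM2-7 ring onto DNA in an inactive form; at the start of S phase CDC45 and the GINS complex join the ring to make the active helicase, and polymerases, the PCNA clamp and its loader RFC follow behind it. Many of these genes are known targets of E2F factors, which cyclin D and cyclin E kinases release from the retinoblastoma protein, so that their transcripts are usually scarce in cells that have left the cycle, such as mature neurons, and plentiful in dividing cultures. In tissue or mixed cultures, a lower level can mean fewer cells that express a gene or less RNA per cell, and these cannot be told apart in bulk libraries.

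By median TPM the 37 genes stood high in glia and both MEF libraries and low in neuron and the brain regions. The library labelled R1 ESC lay in between, nearer to cerebellum than to the MEFs. Their median level was 36.6 TPM in glia, 14.4 TPM in the library labelled R1 ESC, 34.5 TPM in ICR MEF and 32.5 TPM in OG2 MEF, against 3.29 TPM in neuron, 10.4 TPM in cerebellum, 7.94 TPM in cortex and 7.08 TPM in hippocampus. At least 10 TPM was reached by 35 of 37 genes in glia, 23 in the library labelled R1 ESC, 34 in ICR MEF and 33 in OG2 MEF, against 12 in neuron, 20 in cerebellum, 15 in cortex and 14 in hippocampus. Over all genes of the tables, 10013, 4132, 8497 and 8152 reached it, against 7369, 10567, 10664 and 10481, in the same order. Glia had the highest level of 21 of the 37 genes, the library labelled R1 ESC of 10 and ICR MEF of 6. That order depends on the scaling. As CPM, counts over the library total with no length term, glia was highest for 10 genes and the library labelled R1 ESC for 13. With TMM factors of the TPM, which level most genes between libraries, they were highest for 4 and 21. The lowest TPM was in neuron for 18 genes, in cortex for 6, in hippocampus for 5, in cerebellum for 4 and in the library labelled R1 ESC for 3, with neuron and cortex tied at 0 for Cdc6.

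**Figure D1:**
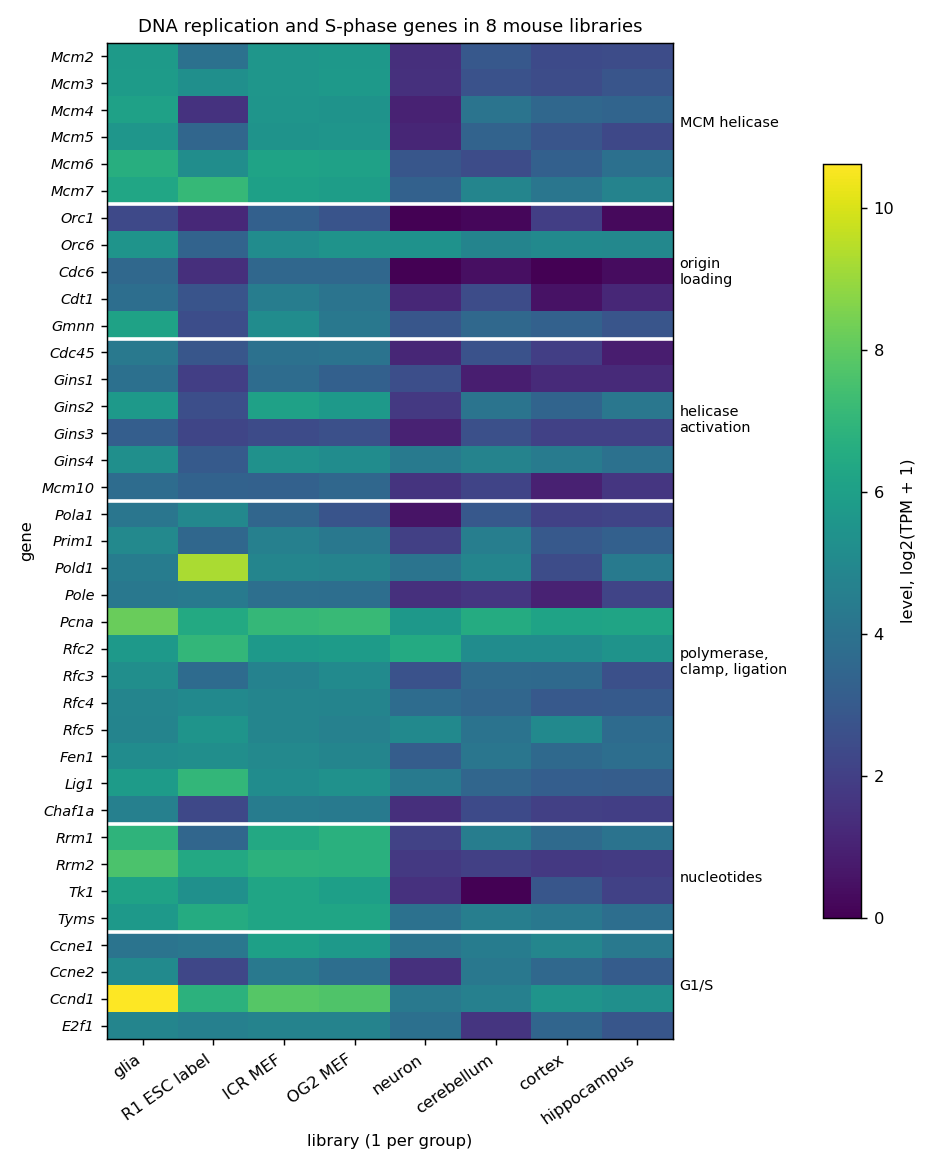
Level of each of the 37 genes (rows, grouped by role) in each of the 8 libraries (columns, 1 library per group), as log2(TPM + 1) on the colour scale. Glia and both MEF libraries are bright in most rows, neuron and the brain regions are dark, and single bright cells stand out for Ccnd1 in glia (1568 TPM) and for Pold1 in the library labelled R1 ESC (621 TPM).

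A gene was called between groups when its level was 10 TPM or more in each library of the higher side and a gap of at least 4-fold, on TPM with 1 added, separated the nearest libraries of both sides. In glia against neuron, 24 of the 37 genes were called higher and 0 lower, where 23.1% of all 14744 genes averaging 1 TPM or more were called higher and 7.89% lower. The count higher fell to 16 with 5 TPM added in place of 1, 17 without the length trend and 18 with TMM factors of the TPM. The median log2 ratio of the 37 genes was 2.79, against 0.89 over all those genes. In glia against the 3 brain regions, 14 of 37 genes were called higher and 0 lower, beside 4.91% higher and 6.42% lower of all genes, with a median of 2.16 for the 37 genes and -0.20 for all genes. In the MEFs against the brain regions, 8 of 37 were called higher and 0 lower, beside 4.55% higher and 11.6% lower of all genes, with medians of 1.97 and -0.80. The count higher in the MEFs was 16 with TMM factors of the TPM, 16 with CPM and 15 when the trend of the ratios with transcript length was removed. These 3 comparisons share libraries and are not independent. Under each of the 8 other settings tried, the count of genes called lower stayed at 0 in all 3.

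Fold values below divide TPM without the added 1, between the lowest library of the higher side and the highest of the other. They carry exact (Clopper-Pearson) 95% intervals, which cover counting error only. In glia relative to neuron the ratios ran over a wide range, with Ccnd1, Rrm2 and Mcm4 at the top. Of the 37 genes only Rfc2 and Rfc5 lay higher in neuron, beside 33.0% of all genes, while 4 to 6 did under the 4 other scalings tried, and Rfc5, Pold1, Orc6 and Ccne1 had intervals that included equal levels.

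**Figure D2:**
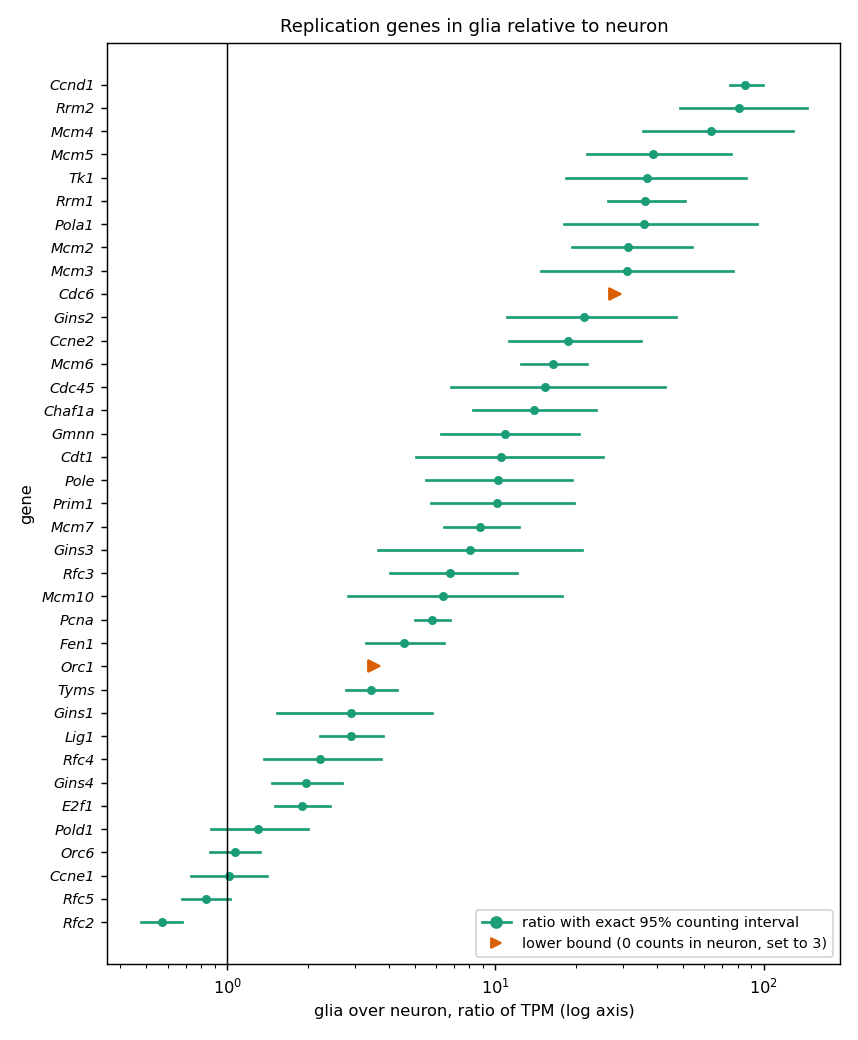
Ratio of TPM in glia over neuron (horizontal log axis) for each of the 37 genes, sorted by size, with bars for the exact 95% counting interval and triangles for lower bounds where neuron had 0 counts, set to 3. Ccnd1 stands at 85.6-fold and Rrm2 at 81.1-fold, and the ratio of Rfc2 lies on the neuron side of 1.

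The MCM2-7 genes encode the ring that unwinds DNA at the fork, and each subunit enters the ring in a single copy. Mcm2 (ENSMUSG00000002870, chr6:88883474-88898780, minus strand, GRCm38) stood at 53.5 TPM in glia, 14.4 TPM in the library labelled R1 ESC, 46.7 TPM in ICR MEF and 49.9 TPM in OG2 MEF, against 1.71 TPM in neuron, 6.51 TPM in cerebellum, 4.23 TPM in cortex and 4.54 TPM in hippocampus. Mcm5 was at 46.1 TPM in glia, 10.3 TPM in the library labelled R1 ESC, 42.3 TPM in ICR MEF and 45.6 TPM in OG2 MEF, against 1.19 TPM in neuron, 9.48 TPM in cerebellum, 5.91 TPM in cortex and 3.88 TPM in hippocampus. For both genes the glia and MEF values lay close together and did not overlap those of neuron or the brain regions. All 6 subunits were called higher in glia than in neuron, by 63.9-fold for Mcm4 (35.5 to 129), 38.7-fold for Mcm5 (21.9 to 75.5) and 31.3-fold for Mcm2 (19.3 to 54.0), with Mcm7 the least at 8.75-fold (6.42 to 12.2). Mcm2, Mcm3, Mcm5 and Mcm6 were also called higher in glia than in the brain regions, by 4.86-fold to 9.22-fold, and in the MEFs than in the brain regions, by 4.46-fold to 7.83-fold. Mcm4 and Mcm7 were not called against the brain regions under the main setting. The nearest libraries differed 4.16-fold and 2.81-fold for glia, and 2.69-fold and 2.19-fold for the MEFs. Mcm4 was called higher in glia with 0.1 TPM added, both kinds of TMM factors, CPM, no length trend and without cerebellum. In the MEFs it was called with TMM factors of the TPM and without the length trend. As CPM, Mcm7 was called higher in both comparisons.

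The 6 subunits stood at even levels in glia and the MEFs and at uneven ones elsewhere. The highest subunit was 2.19 times the lowest in glia, 1.65 times in ICR MEF and 1.54 times in OG2 MEF, against 8.41 times in neuron, 6.09 times in cerebellum, 4.01 times in cortex and 6.70 times in hippocampus. In the library labelled R1 ESC the ratio was 71.3, with Mcm7 at 136 TPM and Mcm4 at 1.91 TPM. Counts behind the low values were small, with 7 for Mcm3 and 11 for Mcm4 in neuron. Mcm7 was the highest subunit in neuron and in all 3 brain regions, at 8.75 TPM in neuron, 27.2 TPM in cerebellum, 16.9 TPM in cortex and 26.0 TPM in hippocampus. Mcm7 shares 321 exon bases with Ap4m1 on the opposite strand and 64 with Cops6, and as the strandedness of the libraries is not stated, reads of the overlaps could come from either gene.

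**Figure D3:**
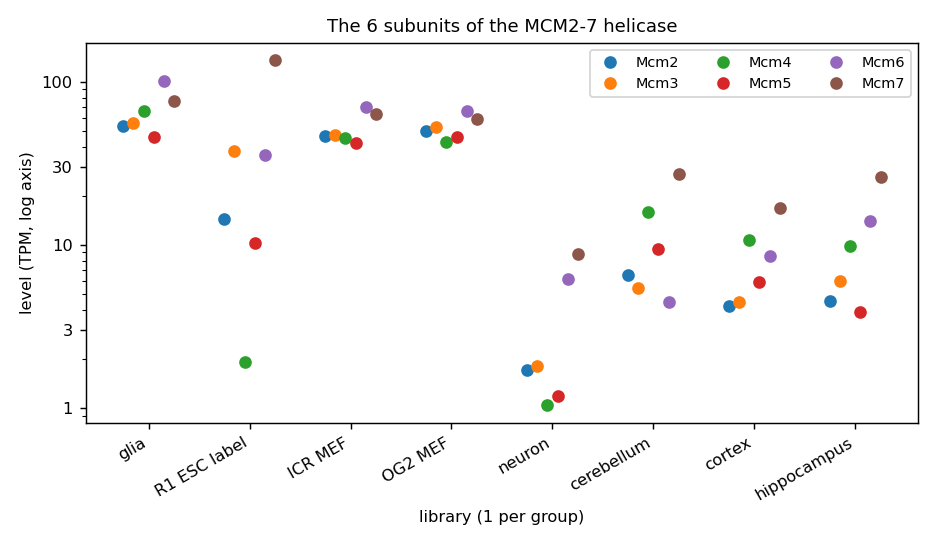
Level of each of the 6 MCM2-7 subunits (points, coloured by gene) in each library, in TPM on a log axis. In glia and both MEF libraries the 6 points lie close together between 42.3 and 101 TPM, while in neuron they spread from 1.04 to 8.75 TPM and in the library labelled R1 ESC from 1.91 to 136 TPM.

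Promoter windows are shown for 5 of the 8 genes called higher both in glia and in the MEFs than in the brain regions, to set their E2F letters side by side. Each window runs from 250 bases before to 50 bases after the RefSeq transcript start (GRCm38.p6), printed 5′ to 3′ on the strand of the gene. Capitals mark TTTCCCGC, TTTCGCGC, TTTGCCGC or TTTGGCGC, read on either strand. The windows are Mcm3 at chr1:20820263-20820562 (minus strand), Mcm5 at chr8:75109259-75109558 (plus), Mcm6 at chr1:128359656-128359955 (minus), Cdc6 at chr11:98907901-98908200 (plus) and, as a contrast without these letters, Rrm2 at chr12:24708004-24708303 (plus). Not printed are the windows of Mcm2 and Tk1, also called in both comparisons, which like Rrm2 held none of these letters. Ccnd1, called in both as well, had no window.
Mcm3: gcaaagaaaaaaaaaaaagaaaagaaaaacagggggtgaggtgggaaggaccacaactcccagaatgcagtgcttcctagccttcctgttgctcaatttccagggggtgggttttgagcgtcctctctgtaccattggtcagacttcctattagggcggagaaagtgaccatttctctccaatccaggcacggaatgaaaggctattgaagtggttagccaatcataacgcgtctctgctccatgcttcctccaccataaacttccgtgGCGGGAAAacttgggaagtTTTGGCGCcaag
Mcm5: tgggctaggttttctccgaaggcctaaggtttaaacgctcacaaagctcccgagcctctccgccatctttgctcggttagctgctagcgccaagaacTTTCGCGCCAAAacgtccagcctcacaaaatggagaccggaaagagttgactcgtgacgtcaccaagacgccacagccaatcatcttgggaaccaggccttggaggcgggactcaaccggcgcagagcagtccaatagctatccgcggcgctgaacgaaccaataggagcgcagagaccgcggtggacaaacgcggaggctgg
Mcm6: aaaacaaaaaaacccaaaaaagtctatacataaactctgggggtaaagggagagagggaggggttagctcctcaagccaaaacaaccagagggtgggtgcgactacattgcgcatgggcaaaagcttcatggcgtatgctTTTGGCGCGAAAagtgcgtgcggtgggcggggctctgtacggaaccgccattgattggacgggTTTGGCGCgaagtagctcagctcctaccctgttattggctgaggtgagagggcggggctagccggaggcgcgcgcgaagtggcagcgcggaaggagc
Cdc6: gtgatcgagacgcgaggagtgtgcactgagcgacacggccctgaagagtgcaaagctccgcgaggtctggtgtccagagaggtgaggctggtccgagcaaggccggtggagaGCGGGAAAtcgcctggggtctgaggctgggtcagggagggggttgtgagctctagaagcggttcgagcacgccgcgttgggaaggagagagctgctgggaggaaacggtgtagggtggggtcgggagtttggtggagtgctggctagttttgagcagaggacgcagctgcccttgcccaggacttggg
Rrm2: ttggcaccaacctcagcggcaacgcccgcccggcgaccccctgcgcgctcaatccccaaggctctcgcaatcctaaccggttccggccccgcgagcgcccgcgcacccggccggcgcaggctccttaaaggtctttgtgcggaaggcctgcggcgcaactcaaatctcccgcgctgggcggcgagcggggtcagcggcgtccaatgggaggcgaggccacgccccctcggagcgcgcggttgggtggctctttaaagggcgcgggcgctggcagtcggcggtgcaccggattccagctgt
In Mcm3 the matches begin 19 and 38 bases after the start, in Mcm6 110, 106 and 47 bases before it, in Mcm5 153 and 149 bases before it and in Cdc6 138 bases before it. The pair at 110 and 106 in Mcm6, and the pair in Mcm5, overlap each other on opposite strands. The Cdc6 window lies wholly within the span of the gene in the GENCODE M21 annotation, which starts further upstream. Of the 37 genes, 28 had an entry in the RefSeq table, with 32 windows in all. The E2F letters were found in 12 of these 32 windows (37.5%), those of Mcm3, Mcm5, Mcm6, Mcm7, Orc1, Cdc6, Cdt1, Gins3, Pola1, Pold1, Rfc3 and Lig1, and in 744 of 32851 windows of all genes (2.26%). CCAAT, the letters of the NF-Y factor, was found on either strand in 18 of 32 windows (56.2%) and in 37.4% of all windows, and TTTGAA, the letters of the CHR element known from late cell cycle genes, in 4 of 32 (12.5%) and in 17.9%. A match describes the letters alone.

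Genes of origin recognition and loading were split between Cdc6, with few or no reads in neuron and the brain regions, and Orc6, which was present in all 8 libraries. Cdc6 (ENSMUSG00000017499, chr11:98907801-98923940, plus strand), the loading factor that joins ORC in G1, had 11.02 TPM in glia, 1.72 TPM in the library labelled R1 ESC, 10.8 TPM in ICR MEF and 10.6 TPM in OG2 MEF, against 0 TPM in neuron, 0.35 TPM in cerebellum, 0 TPM in cortex and 0.26 TPM in hippocampus. That is 92 counts in glia, 88 in ICR MEF and 102 in OG2 MEF, against 0 to 2 counts in neuron and each brain region. Cdc6 was at least 27.9-fold higher in glia than in neuron, with neuron set to 3 counts. It was 31.5-fold higher in glia than in cerebellum, with a wide interval of 8.50 to 265 from 2 counts, and 30.3-fold higher in OG2 MEF than in cerebellum (8.22 to 255). Its level in glia and the MEFs lay just above the 10 TPM the call requires. The call in glia was lost under 3 of 8 other settings against neuron and 3 of 11 against the brain regions.

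Cdt1, the partner of CDC6 in loading, stood at 13.4 TPM in glia, 5.76 TPM in the library labelled R1 ESC, 21.4 TPM in ICR MEF and 16.2 TPM in OG2 MEF, against 1.28 TPM in neuron, 4.54 TPM in cerebellum, 0.43 TPM in cortex and 1.25 TPM in hippocampus. Gmnn encodes geminin, the inhibitor of CDT1 that builds up after G1, and had 67.8 TPM in glia, 4.65 TPM in the library labelled R1 ESC, 34.9 TPM in ICR MEF and 17.99 TPM in OG2 MEF, against 6.22 TPM in neuron and 5.96 to 11.04 TPM in the brain regions. Both were called higher in glia than in neuron, by 10.5-fold for Cdt1 (5.08 to 25.2) and 10.9-fold for Gmnn (6.28 to 20.5), and the Cdt1 call was lost under 4 of 8 other settings, the Gmnn call under 0. Gmnn was called against the brain regions too, at 6.14-fold (3.87 to 10.2). The ratio of Gmnn to Cdt1 TPM was 5.05 in glia (3.79 to 6.77), above 1.63 in ICR MEF (1.21 to 2.18) and 1.11 in OG2 MEF (0.769 to 1.58), with intervals that did not overlap that of glia. In the library labelled R1 ESC the ratio was 0.807 (0.369 to 1.63). It was 4.86 in neuron (1.91 to 13.4), 2.43 in cerebellum (1.27 to 4.64), 20.4 in cortex (4.77 to 182) and 4.77 in hippocampus (1.21 to 22.1). Neuron and hippocampus were thus near glia, on few counts. Orc6, a subunit of the origin recognition complex, had 44.1 TPM in glia, 34.5 TPM in ICR MEF and 43.3 TPM in OG2 MEF, against 41.3 TPM in neuron and 26.4 to 31.5 TPM in the brain regions. Glia and neuron differed 1.07-fold for Orc6, and the interval of 0.862 to 1.32 includes equal levels. Orc6 shares 171 exon bases with Vps35 on the opposite strand, itself at 204 TPM in glia and 41.4 TPM in neuron. Orc1, the largest ORC subunit, reached at most 8.63 TPM, in ICR MEF, and had 0 counts in neuron and 1 in cerebellum and in hippocampus, so it could not meet the rule in any comparison.

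Among the genes that turn the loaded ring into an active helicase, Cdc45 and Gins2 stood furthest apart between glia and neuron. Cdc45 had 18.8 TPM in glia, 6.14 TPM in the library labelled R1 ESC, 14.6 TPM in ICR MEF and 15.4 TPM in OG2 MEF, against 1.23 TPM in neuron, 5.42 TPM in cerebellum, 2.87 TPM in cortex and 0.80 TPM in hippocampus. It was called higher in glia than in neuron at 15.3-fold (6.81 to 42.8), on 6 counts in neuron. Gins2, a subunit of the GINS complex, was called at 21.5-fold (11.1 to 47.3), and Mcm10, a scaffold that helps the helicase start, at 6.36-fold (2.83 to 17.8), a call lost under 5 of 8 other settings. The GINS subunits were not even: in neuron Gins4 had 19.4 TPM, while Gins1, Gins2 and Gins3 had 4.90, 2.35 and 1.01 TPM. Gins1 was called against the brain regions, a call lost under 3 of 11 other settings. With CPM, Cdc45 and Mcm10 were called in its place, and without cerebellum they were called beside it. Gins1 had 14.2 TPM in glia against 0.87 TPM in cerebellum, 1.42 TPM in cortex and 1.39 TPM in hippocampus, with 1 to 3 counts behind each brain value and a fold of 10.02 (3.16 to 50.7). Gins2 shares 2758 exon bases with Gse1 on the opposite strand, which stood at 32.6 to 68.6 TPM in the brain regions and 3.70 TPM in neuron, and its counts were fractional in all 8 libraries, as reads shared between genes give.

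The polymerase, clamp and ligation genes ran from wide contrasts to none, with 7 of 12 called higher in glia than in neuron, and 6, 4, 4 and 3 with TMM factors of the counts, of the TPM, CPM and no length trend. Pcna, the sliding clamp, was at 288 TPM in glia, 87.0 TPM in the library labelled R1 ESC, 135 TPM in ICR MEF and 140 TPM in OG2 MEF, against 49.4 TPM in neuron, 91.3 TPM in cerebellum, 70.4 TPM in cortex and 72.2 TPM in hippocampus. No library lacked it, and the call in glia against neuron rested on 5.82-fold (5.02 to 6.79). Of the polymerase catalytic subunits, Pola1 and Pole were further apart on TPM and Pold1 less so, at 1.30-fold in glia over neuron (0.873 to 2.01). With no length term the Pold1 gap was wider, at 26.6 CPM in glia against 7.28 CPM in neuron, so its small TPM difference depends on the length term. Pola1, of the polymerase alpha that makes primers with primase, had 16.8 TPM in glia against 0.47 TPM in neuron, a fold of 35.8 (18.04 to 94.8). Pole, the catalytic subunit of the leading strand polymerase epsilon, had 18.2 TPM in glia, 13.7 TPM in ICR MEF and 13.2 TPM in OG2 MEF, against 1.78 TPM in neuron and 1.01 to 3.47 TPM in the brain regions. Pole was called higher in glia than in neuron (10.2-fold, 5.51 to 19.3) and than in the brain regions (5.25-fold, 2.90 to 10.7).

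Lig1, the ligase that seals Okazaki fragments, and Chaf1a, the large subunit of the chromatin assembly factor that places histones behind the fork, were the other genes of this group called in glia against the brain regions, at 5.31-fold (4.01 to 7.15) and 5.64-fold (3.83 to 8.35). Lig1 had 55.1 TPM in glia, 128 TPM in the library labelled R1 ESC, 34.7 TPM in ICR MEF and 40.2 TPM in OG2 MEF, against 19.1 TPM in neuron, 10.4 TPM in cerebellum, 7.94 TPM in cortex and 7.66 TPM in hippocampus. Its neuron value lay above all 3 brain regions. Chaf1a shares 4648 exon bases with Ubxn6 on the opposite strand and had fractional counts in every library, so its levels are uncertain.

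The clamp loader subunits differed among themselves. Rfc2 had 50.9 TPM in glia, 51.8 TPM in ICR MEF and 56.2 TPM in OG2 MEF, against 89.3 TPM in neuron and 34.9 to 42.9 TPM in the brain regions, so neuron stood above all of these at 1.76-fold over glia (1.47 to 2.10). Rfc5 had 26.5 TPM in glia against 31.7 TPM in neuron, and the interval of the ratio included equal levels. Rfc3, by contrast, was called higher in glia than in neuron, with 36.6 TPM in glia against 5.41 TPM in neuron (6.76-fold, 4.05 to 12.01), a call lost under 3 of 8 other settings. Rfc4 had 27.3 TPM in glia against 12.3 TPM in neuron and was not called. Rfc2 shares 952 exon bases with Lat2, Rfc5 499 with Wsb2 and Rfc4 194 with Eif4a2, each on the opposite strand. In neuron, Wsb2 stood at 278 TPM and Eif4a2 at 186 TPM. What those overlaps add to the Rfc5 and Rfc4 values was not tested.

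Nucleotide supply genes had the highest median log2 ratio of the 6 roles, 4.70 in glia against neuron (4.01 as CPM, below 4.08 for the MCM2-7 genes), 3.67 in glia against the brain regions and 3.50 in the MEFs against them. Ribonucleotide reductase makes deoxynucleotides from a large subunit, RRM1, and a small one, RRM2, which is made mainly in S phase. Rrm2 (ENSMUSG00000020649, chr12:24708241-24714146, plus strand) had 194 TPM in glia, 83.8 TPM in the library labelled R1 ESC, 111 TPM in ICR MEF and 104 TPM in OG2 MEF, against 2.39 TPM in neuron, 3.01 TPM in cerebellum, 2.41 TPM in cortex and 2.62 TPM in hippocampus. The 4 low libraries lay within 3.01 TPM, and the fold was 81.1 in glia over neuron (49.0 to 145), 64.4 in glia over the nearest brain region (36.7 to 125) and 34.7 in the nearest MEF over the nearest brain region (19.7 to 67.5). Rrm1 had 118.5 TPM in glia, 10.3 TPM in the library labelled R1 ESC, 84.2 TPM in ICR MEF and 106.7 TPM in OG2 MEF, against 3.29 TPM in neuron and 11.9 to 21.3 TPM in the brain regions, so its gap to the brain regions was smaller than that of Rrm2. The ratio of Rrm2 to Rrm1 TPM was 1.64 in glia (1.51 to 1.78), 8.17 (6.49 to 10.3) in the library labelled R1 ESC, 1.32 in ICR MEF (1.19 to 1.47) and 0.978 in OG2 MEF (0.890 to 1.07), against 0.726 in neuron (0.372 to 1.35), 0.141 in cerebellum (0.0716 to 0.252), 0.203 in cortex (0.0729 to 0.458) and 0.171 in hippocampus (0.0611 to 0.386). In each brain region the interval lay below those of glia and both MEFs.

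Tk1, the thymidine kinase of the salvage pathway in S phase, had 68.8 TPM in glia, 39.5 TPM in the library labelled R1 ESC, 74.5 TPM in ICR MEF and 62.0 TPM in OG2 MEF, against 1.87 TPM in neuron, 0 TPM in cerebellum, 6.16 TPM in cortex and 3.14 TPM in hippocampus. The brain values rested on 0 to 12 counts. Tk1 was called higher in glia than in neuron (36.8-fold, 18.4 to 86.4) and than in the brain regions (11.2-fold, 6.27 to 21.9), and in the MEFs than in the brain regions (10.1-fold, 5.65 to 19.8). Tyms, thymidylate synthase, was not called in any comparison under the main setting. With TMM factors of the TPM it was called higher in the MEFs than in the brain regions. On that scale it was also called higher in the library labelled R1 ESC than in the MEFs. It had 50.6 TPM in glia, 91.7 TPM in the library labelled R1 ESC, 75.1 TPM in ICR MEF and 74.0 TPM in OG2 MEF, against 14.7 TPM in neuron and 13.4 to 21.98 TPM in the brain regions, with fractional counts in every library.

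Cyclins divided among themselves. Ccnd1 (ENSMUSG00000070348, chr7:144929931-144939925, minus strand) encodes cyclin D1, which answers growth signals in G1 and is not itself confined to S phase. It had 1568 TPM in glia, 111 TPM in the library labelled R1 ESC, 224 TPM in ICR MEF and 206 TPM in OG2 MEF, against 18.3 TPM in neuron, 23.5 TPM in cerebellum, 44.2 TPM in cortex and 37.5 TPM in hippocampus. This single gene made up 46.3% of the summed TPM of the 37 genes in glia, and without it the sums were 1820 TPM in glia, 1718 TPM in the library labelled R1 ESC, 1456 TPM in ICR MEF and 1403 TPM in OG2 MEF. Glia stood 85.6-fold above neuron (74.7 to 99.1), 35.5-fold above cortex (31.9 to 39.6) and 6.99-fold above ICR MEF (6.69 to 7.32). Ccnd1 shares 1100 exon bases with LTO1 on the opposite strand, a gene at 28.9 TPM in glia and 222 TPM in the library labelled R1 ESC.

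Cyclin E, which acts at the entry to S phase, was carried by different genes in different libraries. Ccne1 had 16.1 TPM in glia, 17.5 TPM in the library labelled R1 ESC, 64.8 TPM in ICR MEF and 51.7 TPM in OG2 MEF, against 15.9 TPM in neuron, 20.9 TPM in cerebellum, 28.3 TPM in cortex and 18.4 TPM in hippocampus, so that glia lay below every brain region. The nearest region, hippocampus, was 1.14-fold above glia, and the interval of 0.780 to 1.655 includes equal levels. Ccne2 had 32.6 TPM in glia, 3.77 TPM in the library labelled R1 ESC, 18.6 TPM in ICR MEF and 13.2 TPM in OG2 MEF, against 1.75 TPM in neuron, 18.2 TPM in cerebellum, 11.1 TPM in cortex and 7.61 TPM in hippocampus. The ratio of Ccne1 to Ccne2 was 0.495 in glia (0.366 to 0.663), 4.65 (3.07 to 7.26) in the library labelled R1 ESC, 3.48 in ICR MEF (2.75 to 4.41) and 3.90 in OG2 MEF (3.10 to 4.98), against 9.06 in neuron (5.34 to 17.3) and 1.15 to 2.55 in the brain regions. On TPM, glia was the only library with more Ccne2 than Ccne1, though the interval in cerebellum, 0.855 to 1.548, included equal levels. As CPM, cerebellum also had more Ccne2 (20.1 CPM) than Ccne1 (14.5 CPM). Ccne2 shares 609 exon bases with Ints8 on the opposite strand, itself at 43.4 TPM in glia, 39.0 TPM in cerebellum and 14.3 TPM in neuron. The counts of Ccne2 were fractional in every library. Ccne2 was called higher in glia than in neuron at 18.6-fold (11.2 to 34.9), while Ccne1 differed 1.02-fold (0.731 to 1.41). E2f1, the activator of S-phase genes, had 27.3 TPM in glia, 23.6 TPM in the library labelled R1 ESC, 26.0 TPM in ICR MEF and 25.8 TPM in OG2 MEF, against 14.3 TPM in neuron, 2.09 TPM in cerebellum, 10.01 TPM in cortex and 6.11 TPM in hippocampus. It was called in no comparison under the main setting. Without the length trend it was called higher in the library labelled R1 ESC than in the MEFs.

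**Figure D4:**
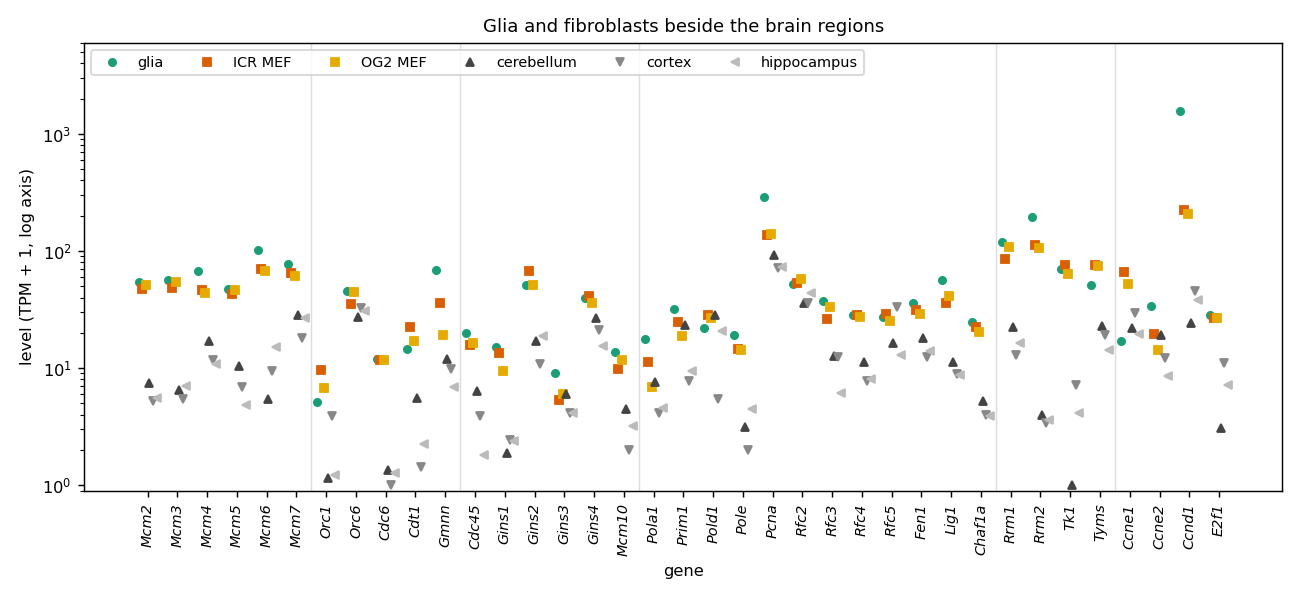
Level of each of the 37 genes (horizontal axis, in order of role) in glia (circles), the MEFs (squares) and the 3 brain regions (grey triangles), as TPM + 1 on a log axis. The circles and squares lie above the triangles for most genes, with the widest gap at Rrm2 and the glia point of Ccnd1 alone at the top. For Rfc5 and Pold1 both circles and squares overlap the triangles, and for Gins3, Pola1, Prim1 and Ccne2 the squares do. The glia point of Ccne1 lies below the triangles.

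Marker lists of other cell types differed between the same libraries. In glia against the brain regions, 5 of 8 fibroblast markers were called higher and 1 lower, with a summed level of 4955 TPM in glia against 410 to 957 TPM in the brain regions, and Lum, a defining one, was at 0.94 TPM in glia. Among 8 neural progenitor markers 2 were called higher, Nes and Sox2, with sums of 878 TPM in glia against 94.2 to 200 TPM, and Eomes and Atoh1 were at 0 in glia. Neuron markers had sums of 460 TPM in glia against 7331 to 8368 TPM in the brain regions, with Rbfox3 at 0 in glia, and microglia markers 628 TPM in glia against 139 to 504 TPM. The endothelial markers Pecam1 and Cldn5 were at 0 in glia. In glia against neuron the microglia sum was 628 TPM in glia against 61.1 TPM in neuron and the fibroblast sum 4955 TPM against 55.4 TPM. In glia against the MEFs, 6 of 8 fibroblast markers were called lower and 0 higher. Their median was 47.8 TPM in glia, against 1887 TPM in ICR MEF and 1535 TPM in OG2 MEF. The part of these cell types in the levels of the replication genes was not tested.

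Neuron against the brain regions gave 0 calls among the 37 genes in either direction, where 1.28% of 15681 genes were called higher and 12.5% lower. Neuron lay below all 3 brain regions for 18 of the 37 genes, 5 of them MCM subunits, beside 66.2% of all genes, and above all 3 for 6 genes, beside 16.1%. Those 6 were Orc6, Rfc2, Rfc4, Lig1, E2f1 and Gins1. The split was 12 below and 15 above with TMM factors of the TPM and 10 below and 15 above without the length trend. Mcm4 was the furthest below, at 1.04 TPM in neuron against 16.0 TPM in cerebellum, 10.7 TPM in cortex and 9.79 TPM in hippocampus, where hippocampus missed the 10 TPM floor. The hippocampus value was 9.41-fold above neuron (4.87 to 20.01). The median log2 ratio of the 37 genes was -0.46, against -1.09 for all genes, but it was 0.30 when libraries were scaled by TMM factors of the TPM and 0.24 when the trend with transcript length was removed. No direction is therefore given for the 37 genes as a whole in this comparison.

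In glia against the MEFs, 1 of the 37 genes was called higher, Ccnd1, and 0 lower, beside 7.7% higher and 2.24% lower of 13900 genes. Their median log2 ratio was 0.26 against 0.54 for all genes, and it turned to -0.26 with TMM factors of the TPM, to -0.01 with CPM and to -0.17 without the length trend. All 6 MCM subunits lay above both MEF libraries in glia, as did 66.5% of all genes, by 1.01-fold to 1.46-fold, but only 3, 2, 2 and 1 of them did so with TMM factors of the counts, of the TPM, CPM and no length trend. Pcna at 2.06-fold (1.86 to 2.28), Gmnn at 1.94-fold over ICR MEF (1.46 to 2.61) and Rrm2 at 1.74-fold (1.57 to 1.92) had intervals above 1. So did Mcm4, Mcm6, Mcm7, Gins3, Pola1, Pole, Lig1, Rrm1, Ccne2 and Ccnd1. Tyms and Ccne1 had such intervals in the other direction. For Tyms, OG2 MEF was 1.46-fold above glia (1.22 to 1.76). Ccne1 stood at 16.1 TPM in glia against 64.8 TPM in ICR MEF and 51.7 TPM in OG2 MEF, with OG2 MEF 3.21-fold above glia (2.46 to 4.24). Scaled by TMM factors of the TPM or as CPM, Ccne1 was called lower in glia.

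In the library labelled R1 ESC against the MEFs, 1 gene was called higher, Pold1, and 6 lower, Mcm4, Rrm1, Gins2, Gins4, Chaf1a and Cdc6, beside 3.18% higher and 31.6% lower of 12847 genes. The share called lower among the 37 genes was thus below that of all genes, and the median log2 ratio was -0.91 against -1.73. These counts depend on the scaling: with TMM factors of the TPM 9 genes were called higher and 1 lower, the median turned to 0.85, and without the length trend it was 0.68. Rrm1 had 10.3 TPM in the library labelled R1 ESC, against 84.2 TPM in ICR MEF and 106.7 TPM in OG2 MEF, 8.21-fold higher in ICR MEF (6.75 to 10.1). Mcm4 was 22.5-fold higher in OG2 MEF (14.2 to 37.7). Mcm4 stayed lower than in the MEFs under every scaling, though not called without the length trend.

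Pold1 (ENSMUSG00000038644, chr7:44532746-44548849, minus strand), the catalytic subunit of the lagging strand polymerase delta, had 621 TPM in the library labelled R1 ESC against 27.2 TPM in ICR MEF and 25.7 TPM in OG2 MEF, 22.8-fold above ICR MEF (19.1 to 27.3). Its effective length in that library was 418 bases, against 582 to 2617 bases in the other 7. Its counts were 749 in the library labelled R1 ESC, against 153 in ICR MEF and 179 in OG2 MEF. Without a length term, with counts divided by the library total alone, that is 349 CPM against 31.8 CPM and 33.1 CPM, so the difference was smaller on that scale and in the same direction. The effective length in the library labelled R1 ESC was below that of all 7 other libraries for 10 of the 37 genes. Among these were Mcm3, Mcm7, Pola1, Pcna and Rrm2, and the part of the shorter length in their TPM was not tested. The share of all genes with this order is not given here, so the 10 cannot be called particular to the 37 genes. Averaged over all its counts, lengths in that library came to 1739 bases. Neuron was next shortest at 2488 bases, against 3021 to 3740 bases in the remaining libraries. The library labelled R1 ESC also had the lowest total count and the largest share of ribosomal protein transcripts. It had the fewest genes at 10 TPM (4132), followed by neuron (7369), against 8152 to 10664 in the others.

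Cerebellum against cortex and hippocampus gave 0 calls higher and 0 lower among the 37 genes, beside 1.67% higher and 2.23% lower of 15840 genes. Cerebellum lay above both other regions for 24 of the 37 genes, beside 45.8% of all genes, and below both for 7, beside 35.9%, and the median log2 ratio was 0.39 against 0.08 for all genes. Prim1, the primase subunit, stood at 22.3 TPM in cerebellum against 6.79 TPM in cortex and 8.45 TPM in hippocampus, 2.63-fold over hippocampus (1.58 to 4.62). E2f1 went the other way, with 2.09 TPM in cerebellum against 10.01 TPM in cortex and 6.11 TPM in hippocampus, and hippocampus was 2.92-fold higher (1.44 to 6.21). Of the 8 neural progenitor markers, Eomes and Pax6 were called higher in cerebellum and 1, Hes5, lower. Cerebellum lay above both other regions for 2 of these markers and below both for 4, with a median log2 ratio of -0.28. Eomes had 39.1 TPM in cerebellum against 0.64 TPM in cortex and 1.30 TPM in hippocampus. Pax6 had 116.5 TPM in cerebellum against 11.3 TPM in cortex and 10.2 TPM in hippocampus. Atoh1, a defining gene of cerebellar granule cell progenitors, was at 0 in cerebellum.

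ICR MEF and OG2 MEF gave 0 calls among the 37 genes in either direction, beside 0.298% higher and 0.102% lower of 12758 genes. Their median log2 ratio was 0.08 against 0.09 for all genes. Gmnn, at 34.9 TPM in ICR MEF against 17.99 TPM in OG2 MEF, was the furthest apart at 1.94-fold (1.33 to 2.86), and Pola1 followed at 1.76-fold (1.35 to 2.32). For the 6 MCM subunits the ratio either way was at most 1.12-fold, and each interval included equal levels.

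Other genes of the cell cycle were counted as a background to these roles. Of 50 further replication genes, 22 were called higher in glia than in neuron, 7 in glia than in the brain regions and 5 in the MEFs than in the brain regions, with 0 lower in each. With TMM factors of the TPM these became 13 higher and 1 lower in glia against neuron, and as CPM 10 were higher in the MEFs than in the brain regions. Uhrf1, which guides maintenance DNA methylation behind the fork, was the furthest apart, at 46.8 TPM in glia, 41.5 TPM in ICR MEF and 39.7 TPM in OG2 MEF, against 0 TPM in neuron and 0.68 to 1.16 TPM in the brain regions. Of 26 further G1/S regulators, 18 were called higher in glia than in neuron, and 9 in glia and 9 in the MEFs than in the brain regions. Over all genes, 23.1% were called higher in glia than in neuron, and 4.91% in glia and 4.55% in the MEFs than in the brain regions. Ccnd2, the second D cyclin, had 935 TPM in glia, 318 TPM in ICR MEF and 311 TPM in OG2 MEF, against 8.94 TPM in neuron and 3.01 to 47.9 TPM in the brain regions. The ratio of Ccnd1 to Ccnd2 was 1.68 in glia (1.64 to 1.72), against 0.704 in ICR MEF (0.670 to 0.741) and 0.662 in OG2 MEF (0.631 to 0.695). The library labelled R1 ESC had a higher ratio than glia, 8.45 (7.29 to 9.83), as did cerebellum at 7.80 (5.52 to 11.2). The ratio was 2.05 in neuron (1.65 to 2.54), 0.992 in cortex (0.865 to 1.14) and 0.783 in hippocampus (0.661 to 0.926). Tfdp1, the partner that E2F factors need to bind DNA, was at 132 TPM in glia, 1.11 TPM in the library labelled R1 ESC, 120 TPM in ICR MEF and 116 TPM in OG2 MEF, against 0.84 TPM in neuron and 52.0 to 65.5 TPM in the brain regions.

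Genes of G2 and mitosis separated the libraries further than the replication genes did. All 22 on that list were called higher in glia than in neuron and than in the brain regions, and 19 of 22 in the MEFs than in the brain regions, with 0 lower. Their median was 78.01 TPM in glia, 6.20 TPM in the library labelled R1 ESC, 57.8 TPM in ICR MEF and 52.8 TPM in OG2 MEF, against 1.40 TPM in neuron and 1.28 to 1.44 TPM in the brain regions. Cdk1, the kinase that drives mitosis, had 288 TPM in glia, 166 TPM in ICR MEF and 188 TPM in OG2 MEF, against 1.13 TPM in neuron and 1.31 to 1.37 TPM in the brain regions. In the brain regions the 37 replication genes thus kept a median of 7.08 to 10.4 TPM where the mitosis list had 1.28 to 1.44 TPM. In the library labelled R1 ESC against the MEFs, 11 of 22 mitosis genes were called lower and 0 higher, as were 12 of 26 G1/S regulators. The 50 further replication genes had 11 lower and 5 higher. Of all genes, 31.6% were called lower and 3.18% higher in that comparison. With TMM factors of the TPM these lists had 5 lower and 2 higher, 6 and 1, and 3 and 11. All genes then gave 1721 lower and 1677 higher, against 4064 and 409 under the main setting.

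**Figure D5:**
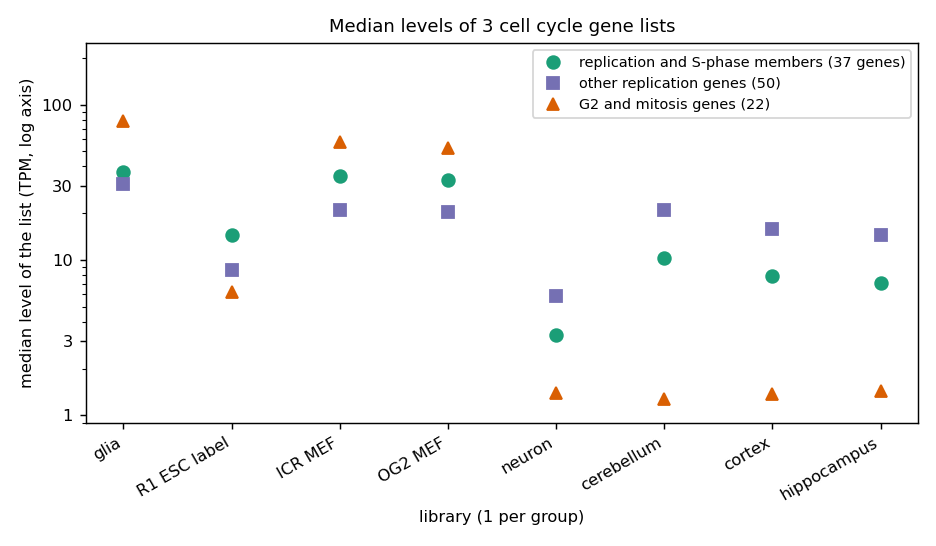
Median level of the 37 replication and S-phase genes (circles), 50 further replication genes (squares) and 22 genes of G2 and mitosis (triangles) in each library, in TPM on a log axis. The mitosis list lies above the others in glia and the MEFs (78.01, 57.8 and 52.8 TPM) and below them in neuron and the brain regions (1.28 to 1.44 TPM).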

How the data were processed

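Total RNA of 8 mouse libraries was taken up in Trizol and prepared with the Illumina TruSeq RNA kit, starting from 1 ug, per the labels' protocols. Reads were handled with Bowtie and RSEM on mm10, per the submitters' processing notes, which give no versions. Not given in the sources used here are the annotation release and the strandedness. The authors deposited expected counts, the read numbers RSEM assigns to each gene, for every library, per the file headers. Values in TPM and effective lengths in bases were deposited in the same tables, per the file headers; TPM divides each count by the effective length the authors' tool estimated, so a library with fewer long transcripts shifts every other gene. At these depths a gene 2000 bases long with 3 counts would have 0.461 to 0.943 TPM, depending on the library. Symbols were matched by gene identifier, gene coordinates come from GENCODE M21 (GRCm38, mm10) and promoters from RefSeq (GRCm38.p6).

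With 1 library per group the 8 comparisons used a rule in place of a test: at least 10 TPM in every library of the higher side, and a 4-fold gap between the nearest libraries on TPM with 1 added. Log2 ratios are differences of the groups' mean log2(TPM + 1). Folds were computed on TPM with exact 95% counting intervals, and 3 counts stood in for a side without any. Medians over all genes use those that average 1 TPM or more. PCR copies are not marked, so intervals cover counting error only.

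Any of the 37 genes could be named. Of every other list up to 4 genes with the largest ratio per comparison could be, as could markers at 0 and the 10 genes whose profile lay nearest to the mean of the 37. The 37 genes, the lists, the rule and the alternatives were chosen with earlier results of these data known. Some values of marker, E2F-related and overlapping genes are given because they bear on a result and were chosen after their values were seen.

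The alternatives were 0.1 or 5 TPM added, no floor, TMM factors of the counts or of the TPM, CPM with no length term, the length trend removed in 20 bins, thinning to 2146964 counts (seed 11), and leaving out each library of a side with more than 1. The rule was also run on simulated libraries with known folds, whose outcome is not given here and is not used as support. TMM factors came from edgeR 4.0.16 under R 4.3.3. All other steps ran under Python 3.11.15, with pandas 2.3.3 and numpy 2.4.6 for tables, scipy 1.17.1 for intervals and matplotlib 3.10.9 for plots.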

Additional observations from a re-analysis of the deposited data

How the results depend on the processing

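No paired analysis was possible because each group holds 1 library. Of the 54 calls among the 37 genes, 54 were made again with 0.1 TPM added, 34 with 5 TPM, 54 with no floor, 47 and 42 with TMM factors of the counts and of the TPM, 45 with CPM, 41 without the length trend and 46 after thinning. With 5 TPM added, genes called higher fell to 8 in glia against the brain regions and 5 in the MEFs against them, and genes called lower to 3 in the library labelled R1 ESC. Scaling moved the median over all genes most for that library (-1.73, against -0.26 with TMM factors of the TPM and 0.37 without the length trend). Neuron against the brain regions (-1.09, against -0.28 and -0.04) and glia against neuron (0.89, against 0.09 and 0.00) followed. In glia against neuron all genes were called 3412 higher and 1163 lower, against 2050 and 1920 with TMM factors of the TPM. The MEFs against the brain regions then gave 16 genes called higher on TMM-scaled TPM, 16 with CPM and 15 without the length trend. The library labelled R1 ESC against the MEFs gave 3, 9, 4 and 9 higher and 3, 1, 1 and 0 lower with TMM factors of the counts, of the TPM, CPM and no length trend; without that trend Cdc6 (0.28) and Chaf1a (0.50) turned positive, and the median of the 37 genes turned to 0.85 and 0.68. Medians also turned to 0.30 and 0.24 in neuron against the brain regions, to -0.26, -0.01 and -0.17 in glia against the MEFs (TMM factors of the TPM, CPM, no length trend) and to -0.02 and -0.00 in ICR MEF against OG2 MEF. Neuron gave 1 gene lower than the brain regions with no floor and 1 after thinning (Mcm4 in both) and 2 with CPM (Mcm4 and Gins2), glia 1 lower than the MEFs (Ccne1) on TMM-scaled TPM and 1 with CPM, and cerebellum 1 lower (Tk1) with no floor. Leaving out single libraries gave 14 to 18 genes higher in glia and 8 to 12 in the MEFs against the brain regions (12, 1.5 times, without cerebellum), 0 to 2 lower in neuron (Gins2 without cortex, Mcm4 and Ccne2 without hippocampus), 1 to 2 higher (Pola1 added without ICR MEF) and 8 to 8 lower in the library labelled R1 ESC, and 0 to 1 higher in cerebellum (Pold1 without hippocampus). Depth limits the low genes: 2 of 37 had 3 counts or fewer in neuron, 4 in cerebellum, 3 in cortex and 4 in hippocampus. The causes were not tested.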

Other observations

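Genes outside the lists with the profile most like the mean of the 37 were sought over the 8 libraries, as the root mean square distance of log2(TPM + 1) centred on each gene's own mean, among 10327 genes averaging 10 TPM or more. The median distance over those genes was 1.60. The nearest were Gpx1, a glutathione peroxidase, at 0.19, Hmgn1, a nucleosome binding protein, at 0.23, Ddb1, a part of the CUL4 ubiquitin ligase, at 0.26 and Pgd, of the pentose phosphate pathway, at 0.30. They were followed by Lmf2 at 0.31, Incenp, a part of the chromosomal passenger complex, at 0.32, Fam110a at 0.33, the cyclin F gene Ccnf at 0.34, Actn4 at 0.34 and Samhd1, a deoxynucleotide hydrolase, at 0.35. Samhd1 had 61.6 TPM in glia, 42.9 TPM in the library labelled R1 ESC, 62.4 TPM in ICR MEF and 73.3 TPM in OG2 MEF, against 6.33 TPM in neuron, 25.0 TPM in cerebellum, 16.0 TPM in cortex and 17.5 TPM in hippocampus. Among the 37 genes themselves the distance ran from 0.37 for Mcm10 and Rfc3 to 1.80 for Pold1. The 10 genes above were picked as the nearest of 10327, so their distances cannot be compared with those of the 37.

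The G1/S list holds 7 genes of cyclin-dependent kinase inhibitors, set out here after their values were seen. Of these, 5 were called higher in glia than in neuron, 4 in glia and 4 in the MEFs than in the brain regions, with 0 lower in each. The shares called higher over all genes were 23.1%, 4.91% and 4.55%, in that order. Cdkn1a, the p21 inhibitor, had 411 TPM in glia, 147 TPM in the library labelled R1 ESC, 481 TPM in ICR MEF and 456 TPM in OG2 MEF, against 87.8 TPM in neuron, 22.2 TPM in cerebellum, 14.6 TPM in cortex and 4.63 TPM in hippocampus. Cdkn2a, which encodes the p16 and p19 proteins, had 55.7 TPM in glia, 34.6 TPM in the library labelled R1 ESC, 102 TPM in ICR MEF and 103 TPM in OG2 MEF, against 2.70 TPM in neuron and at most 0.64 TPM in the brain regions. Cdkn1a, Cdkn2a and Cdkn2b were called higher in glia, and in the MEFs, than in the brain regions. Cdkn2d went the other way, at 49.8 TPM in glia, 29.1 TPM in ICR MEF and 26.1 TPM in OG2 MEF, against 167 TPM in neuron and 57.9 to 72.8 TPM in the brain regions, and was called in none of these. Cdkn2c had 94.5 TPM in glia, against 16.6 TPM in ICR MEF and 14.8 TPM in OG2 MEF and 0.78 TPM in neuron and 1.72 to 4.39 TPM in the brain regions. Cdkn1b had 133 TPM in glia, against 29.4 TPM and 30.3 TPM in the MEFs, 26.7 TPM in neuron and 33.4 to 103.5 TPM in the brain regions. These 2 were called higher in glia than in the MEFs, and Cdkn1c, at 13.5 TPM in glia against 58.5 TPM in ICR MEF and 78.9 TPM in OG2 MEF and 3.68 to 10.4 TPM in the brain regions, was called lower than in the MEFs.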
